A study of Mus musculus with 6 samples.

Results

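Akt1, Akt2, Mtor, Rptor, Tsc1, Tsc2, Ddit4 and Pik3r1, genes of the pathway that runs from phosphoinositide 3-kinase (PI3K) through the kinase AKT to the kinase mTOR, were followed in mouse testis cells sorted by the surface protein Thy1. A probe set was taken where the platform annotation names 1 of these genes and no other, which gave 22 probe sets of 45037 tested, for 8 genes of 18193. Thy1-positive cells were set against Thy1-negative cells, with 3 Affymetrix arrays per fraction (P1, P2 and P3, then N1, N2 and N3), with the replicates of a fraction from independent donor preparations. Whether arrays of the same number in the 2 fractions share a preparation is not stated. The cells came from testes of prepubertal mice by a modified magnetic isolation, and per the series' design text germ cell transplantation found stem cell activity enriched among Thy1-positive cells. The labels give no strain, no genotype and no treatment for the animals, and the Thy1-negative fraction is what the sort left, with markers of several testis cell types (below). All values below are log2(intensity + 1), a difference is the Thy1-positive mean minus the Thy1-negative mean, and levels are compared between fractions and not between genes, since probe sets differ in brightness.

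PI3K makes a membrane lipid that draws AKT to the plasma membrane, where AKT is phosphorylated and passes growth factor signals on. AKT inhibits the TSC1-TSC2 complex, which otherwise switches off the small GTPase RHEB, the activator of mTOR complex 1 (mTORC1). mTORC1 promotes translation and cell growth, and in the mouse testis the pathway lies downstream of the growth factor GDNF in stem spermatogonia, while excess mTORC1 activity is known to deplete them. Most of this signalling runs through phosphorylation, which arrays do not measure.

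In their brightest probe sets Mtor, Rptor and Tsc2 had every Thy1-positive array above every Thy1-negative array, with differences of 1.21, 0.57 and 1.06. Akt2, Tsc1 and Ddit4, the last an inhibitor of mTORC1, had every Thy1-positive array below, with differences of -0.49, -0.70 and -1.36. These 6 of 8 genes without overlap stand against 51.4% of all genes. None of the 6 differences passed the test over all probe sets. Taken over all their probe sets, Akt1, Akt2, Tsc1 and Pik3r1 had both signs. Of the 22 probe sets 1 of Rptor was called higher and 1 of Tsc1 lower at an adjusted p below 0.05 (limma, Benjamini-Hochberg over all probe sets). These 2 of 22 stand against 23.4% called over all probe sets, 11.8% higher and 11.5% lower. Over the brighter probe sets of the table, with a mean above the median, 42.5% were called. The 22 are not all of that kind, since 5 were dim in both fractions and the called Tsc1 probe set is below that median. With each array centred on its median 9 were called higher and 2 lower, where 70.6% of all probe sets were called. With each array centred on housekeeping genes 5 were called higher and 2 lower, against 27.5% of all probe sets, and with quantile normalization 2 and 0, against 24%. For 11 of the 22 the Thy1-positive and Thy1-negative arrays had no overlap, as for 43.6% of all probe sets. The median difference was 0.06 over the 22 probe sets and 0 over all. In their brightest probe sets Mtor, Tsc2 and Ddit4 lay just outside the threshold (limma, adjusted p = 0.0633, 0.0705 and 0.0812). So did Tsc1 1422043_at, with a positive difference of 1.30, and the dim Mtor 1436267_a_at (limma, adjusted p = 0.0636 and 0.0610). At gene level, with the brightest probe set of each of 18193 genes, Mtor was inside it (adjusted p = 0.0485), where 18.5% of genes were called higher. A bulk array cannot tell fewer cells of a type from less RNA per cell.

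**Figure D1:**
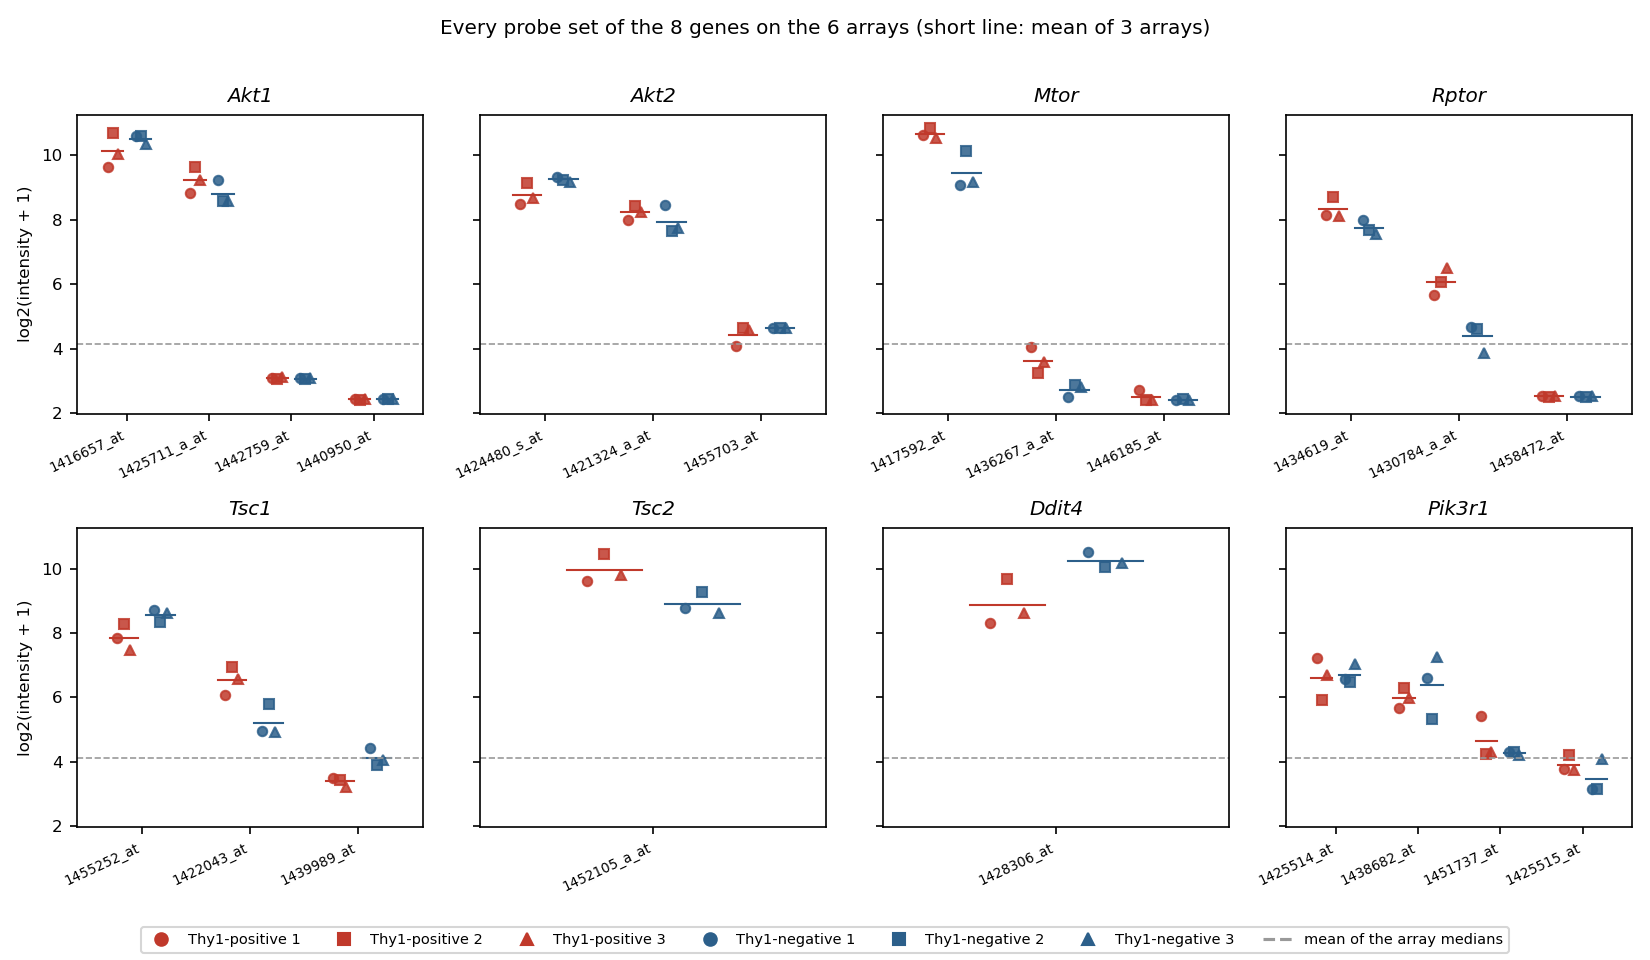
Log2(intensity + 1) of each member probe set, with 1 panel per gene, single arrays as points (circle, square and triangle for replicates 1, 2 and 3, red for Thy1-positive at left and blue for Thy1-negative at right), means as short lines and the mean of the array medians as a dashed line. For Mtor 1417592_at the Thy1-positive arrays sit at 10.55 to 10.84, above 9.07 to 10.14 in Thy1-negative, and for Ddit4 they sit at 8.32 to 9.69, below 10.05 to 10.51.

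The promoters of the 3 genes whose brightest probe set differed by over 1 are shown for reference, from RefSeq on GRCm38.p6, 250 bases before to 50 after the start and on the strand of the gene. Capitals mark 3 motifs, each searched on both strands. The first is CCAAT, known as the site of NF-Y. The second, the core of the site for hypoxia-inducible factors, is ACGTG. The third is the ETS factor core CCGGAAG. Mtor lies at chr4:148448332-148448631 (+), Tsc2 at chr17:24632578-24632877 (-) and Ddit4 at chr10:59951721-59952020 (-).
Mtor: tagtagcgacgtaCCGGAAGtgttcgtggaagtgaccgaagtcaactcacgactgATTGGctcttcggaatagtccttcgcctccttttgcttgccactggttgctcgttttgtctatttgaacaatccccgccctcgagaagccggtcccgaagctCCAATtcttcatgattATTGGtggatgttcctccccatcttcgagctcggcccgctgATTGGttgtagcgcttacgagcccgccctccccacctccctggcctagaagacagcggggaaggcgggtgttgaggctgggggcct
Tsc2: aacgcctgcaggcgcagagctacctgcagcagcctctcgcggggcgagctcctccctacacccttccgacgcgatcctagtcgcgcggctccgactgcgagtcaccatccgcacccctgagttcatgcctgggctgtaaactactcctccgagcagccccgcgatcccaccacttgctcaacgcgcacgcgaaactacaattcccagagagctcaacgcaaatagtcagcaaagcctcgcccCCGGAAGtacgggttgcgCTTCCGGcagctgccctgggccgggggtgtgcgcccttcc
Ddit4: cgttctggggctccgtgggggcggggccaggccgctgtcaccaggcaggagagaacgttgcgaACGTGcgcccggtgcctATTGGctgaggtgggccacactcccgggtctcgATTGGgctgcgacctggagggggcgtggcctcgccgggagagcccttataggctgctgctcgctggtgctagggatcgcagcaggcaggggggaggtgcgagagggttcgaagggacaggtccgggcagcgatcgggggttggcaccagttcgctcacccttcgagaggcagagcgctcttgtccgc
The Mtor window holds 4 matches to CCAAT and 1 to CCGGAAG. The Tsc2 window holds 2 matches to CCGGAAG and none of the others. The Ddit4 window holds 2 matches to CCAAT and 1 to ACGTG. Among 32851 promoters of that RefSeq set, 37.4% hold CCAAT, 19.6% ACGTG and 8.86% CCGGAAG, and 3.37% hold 3 or more CCAAT and 1.48% hold 2 or more CCGGAAG. All 8 genes have at least 1 promoter in that set, 13 in all, of which 4 hold CCAAT, 3 hold ACGTG and 2 hold CCGGAAG. A match is a description of the letters and not a binding site.

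The marker lists set the frame for these values. All 10 measured genes of undifferentiated spermatogonia were called higher in Thy1-positive cells, with list means of 10.06 in Thy1-positive cells, against 7.22 in Thy1-negative cells. So were all 10 macrophage genes (10.04 in Thy1-positive, 3.46 in Thy1-negative) and 3 of 4 T lymphocyte genes (5.68 in Thy1-positive, 3.09 in Thy1-negative). Of 7 general germ cell genes 4 were called higher (11.6 in Thy1-positive, 9.69 in Thy1-negative). Of 10 Sertoli cell genes 9 were called lower, with means of 6.41 in Thy1-positive cells, against 10.26 in Thy1-negative cells, and Amh and Fshr were dim in Thy1-positive cells. Of 6 peritubular myoid genes 4 were called lower (5.86 in Thy1-positive, 8.01 in Thy1-negative), as were 2 of 4 Leydig genes and 2 of 3 erythroid genes, and of 5 endothelial genes 1 was called higher and 1 lower. Within the fractions P2 and N2 stood apart. The summed intensity of the Sertoli list was 4370, 15600 and 4960 on P1, P2 and P3, against 90800, 68100 and 85200 on N1, N2 and N3, and that of the germ cell list was 38500, 36300 and 38700 on P1, P2 and P3, against 10100, 25900 and 13400 on N1, N2 and N3. The sum of the macrophage list was 11700 to 18400 in Thy1-positive cells, against 131 to 164 in Thy1-negative cells, where 7 of its 10 genes were dim, Ptprc and Adgre1 among them. The part of these cell types in the differences given here was not tested.

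**Figure D2:**
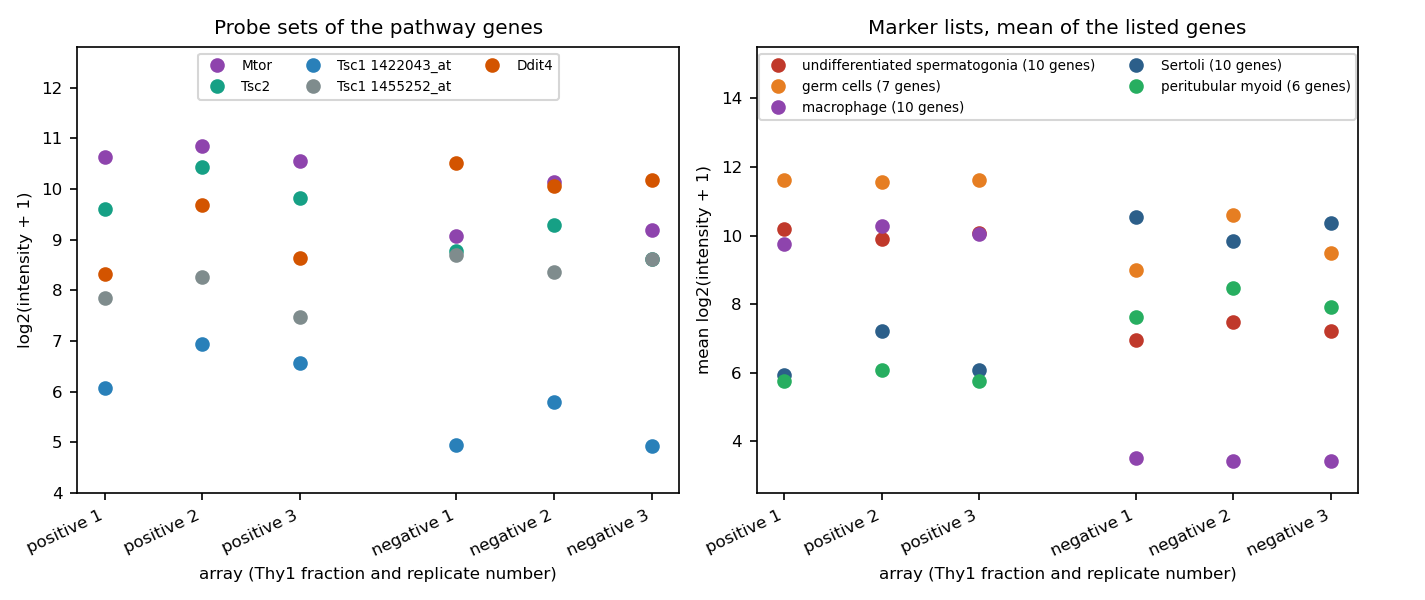
Log2(intensity + 1) of 5 member probe sets (left) and mean log2(intensity + 1) of 5 marker lists (right) on each array, as points, with Thy1-positive arrays left of Thy1-negative ones. On P2 Ddit4 (9.69) and the Sertoli list (7.22) are above P1 and P3, and on N2 Mtor (10.14) and the germ cell list (10.59) are above N1 and N3.

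Mtor, the kinase at the core of mTORC1 and mTORC2, measured 10.62, 10.84 and 10.55 on P1, P2 and P3, against 9.07, 10.14 and 9.18 on N1, N2 and N3 (probe set 1417592_at). Every Thy1-positive array was above every Thy1-negative array, and N2 came nearest to them. The means were 10.67 ± 0.15 in Thy1-positive cells, against 9.46 ± 0.59 in Thy1-negative cells (SD, n = 3 arrays each), a 2.31-fold difference (1.21, SE 0.33, 95% interval 0.34 to 2.07). Among the 6 fits that left out 1 array it passed only without N2, by 1.55 (adjusted p = 0.00449), and at gene level too it was called only without N2. The general germ cell list was also highest on N2 among the Thy1-negative arrays, as given above. The other Mtor probe sets were dim in both fractions, meaning below the median of the array on all 3 arrays of each. Of these 1436267_a_at measured 4.06, 3.25 and 3.59 on P1, P2 and P3, against 2.51, 2.87 and 2.81 on N1, N2 and N3, which do not overlap. It differed by 0.90 (SE 0.24, adjusted p = 0.0610). It passed without P2 (1.09, adjusted p = 0.0474), and failed in the other fits without 1 array (limma adjusted p = 0.0952 to 0.169). The third, 1446185_at, stayed at 2.41 to 2.71 in Thy1-positive cells, against 2.41 to 2.43 in Thy1-negative cells.

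Rptor encodes Raptor, the scaffold that brings substrates to mTORC1. Its probe set 1430784_a_at measured 5.68, 6.07 and 6.51 on P1, P2 and P3, against 4.68, 4.62 and 3.88 on N1, N2 and N3. The fractions did not overlap, although N3 lay below the median of its array. The means were 6.08 ± 0.42 in Thy1-positive cells, against 4.40 ± 0.44 in Thy1-negative cells (SD, n = 3 each), 3.22-fold higher (1.69, SE 0.33, adjusted p = 0.0271), and this was the single member probe set called higher. The call held without N2 (1.80, adjusted p = 0.0461) and failed without P1 (1.89), P2 (1.70), P3 (1.48), N1 (1.83) or N3 (1.43), with adjusted p from 0.0523 to 0.0894. The brighter Rptor probe set, 1434619_at, measured 8.15, 8.71 and 8.11 on P1, P2 and P3, against 8.01, 7.68 and 7.56 on N1, N2 and N3. It too was higher on every Thy1-positive array, by a smaller amount that did not pass (0.57, SE 0.22, adjusted p = 0.147). The third Rptor probe set, 1458472_at, was dim throughout, at 2.51 to 2.52 in Thy1-positive cells and as low in Thy1-negative cells.

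Tsc2, the subunit of the TSC complex that acts on RHEB, has 1 probe set here, 1452105_a_at. It measured 9.60, 10.44 and 9.81 on P1, P2 and P3, against 8.78, 9.28 and 8.62 on N1, N2 and N3. The fractions did not overlap, and the array numbered 2 was the highest of each. The means were 9.95 ± 0.44 in Thy1-positive cells, against 8.90 ± 0.34 in Thy1-negative cells (SD, n = 3 each), a 2.08-fold difference (1.06, SE 0.30, 95% interval 0.27 to 1.84). It passed in none of the 6 fits without 1 array over all probe sets, and at gene level in 1, that without N2. Without both arrays numbered 2, an alternative chosen after the values were seen, it differed by 1.00 with an adjusted p of 0.0310.

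Tsc1, which stabilises Tsc2 in the complex, gave probe sets that ran in opposite directions. The brightest, 1455252_at, measured 7.85, 8.27 and 7.47 on P1, P2 and P3, against 8.70, 8.35 and 8.62 on N1, N2 and N3, so it was lower on every Thy1-positive array, narrowly so for P2. Its difference was -0.70 (SE 0.24, adjusted p = 0.113). Probe set 1422043_at measured 6.07, 6.94 and 6.56 on P1, P2 and P3, against 4.95, 5.79 and 4.93 on N1, N2 and N3, and was thus higher on every Thy1-positive array. It differed by 1.30 (SE 0.35, adjusted p = 0.0636). It passed without N2 (1.59, adjusted p = 0.0323), and failed in the other fits without 1 array (limma adjusted p = 0.0824 to 0.189). Taken per array, 1422043_at minus 1455252_at was -1.78, -1.33 and -0.91 on P1, P2 and P3, against -3.75, -2.56 and -3.69 on N1, N2 and N3. The change between fractions thus differed by 2.00 between these probe sets of a single gene, a pair chosen for its opposite signs and so given without a test. The dimmest, 1439989_at, measured 3.51, 3.45 and 3.23 on P1, P2 and P3, against 4.43, 3.90 and 4.07 on N1, N2 and N3. It was the single member probe set called lower (-0.73, SE 0.16, adjusted p = 0.0393), but it was dim in Thy1-positive cells and near the array medians in Thy1-negative cells, which leaves it at least 1.04-fold lower against that level. The call held without N2 (-0.85) and failed without P1 (-0.79), P2 (-0.76), P3 (-0.65), N1 (-0.59) or N3 (-0.77). No single direction for Tsc1 can be given from these probe sets.

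Ddit4, also known as Redd1, is induced by hypoxia, glucocorticoids and other stress and restrains mTORC1 through the TSC complex. It measured 8.32, 9.69 and 8.63 on P1, P2 and P3, against 10.51, 10.05 and 10.17 on N1, N2 and N3 (probe set 1428306_at). All Thy1-positive arrays were below all Thy1-negative arrays, with P2 standing between the other Thy1-positive arrays and the Thy1-negative ones. The means were 8.88 ± 0.72 in Thy1-positive cells, against 10.24 ± 0.24 in Thy1-negative cells (SD, n = 3 each), which is 2.57-fold lower (-1.36, SE 0.41, 95% interval -2.44 to -0.29). Without P2 it was lower by a larger amount and passed (-1.77, adjusted p = 0.0188), and in the other 5 fits without 1 array its adjusted p was 0.133 to 0.233. P2 was also the Thy1-positive array with the most Sertoli signal, as given above. Ddit4 had the widest spread between Thy1-positive arrays of the 8 genes' brightest probe sets.

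**Figure D3:**
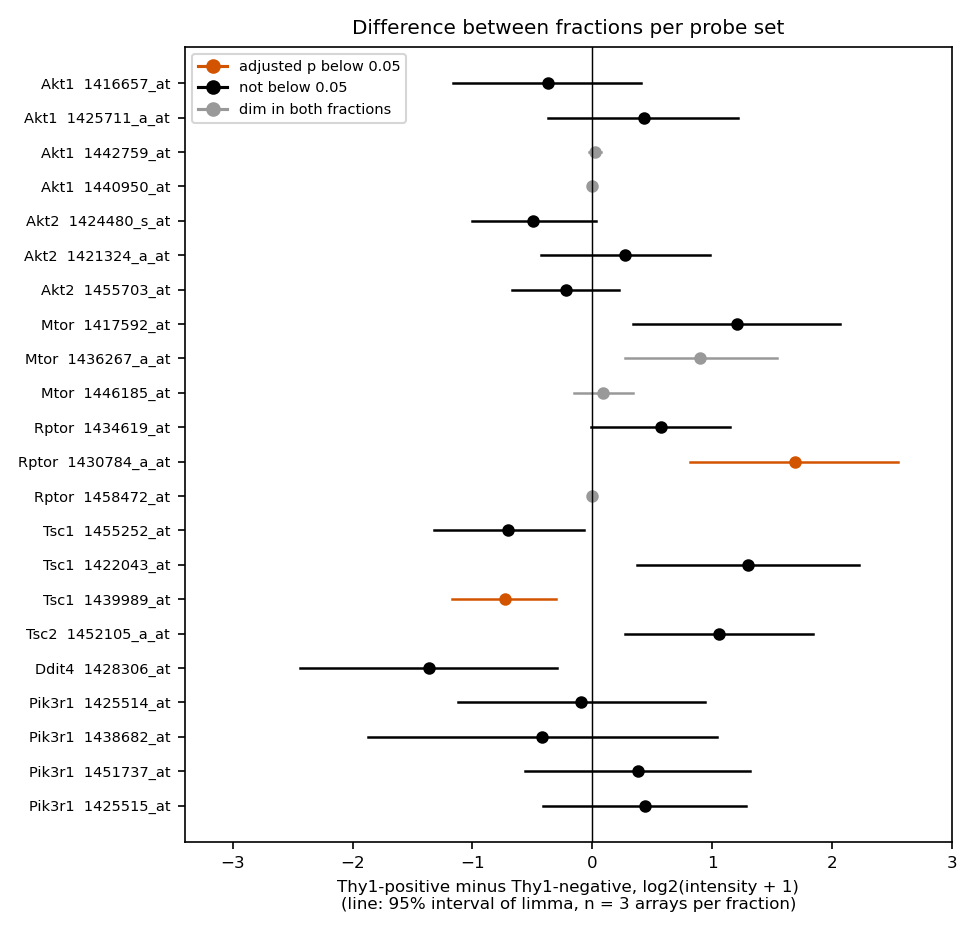
Points are the Thy1-positive minus Thy1-negative difference of mean log2(intensity + 1) for each of the 22 probe sets, and lines are 95% intervals from limma with 3 arrays per fraction. The probe sets called are Rptor 1430784_a_at at 1.69 and Tsc1 1439989_at at -0.73, and 5 are dim in both fractions.

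Akt1 and Akt2 encode the AKT kinases, of which Akt2 is best known for insulin signalling and Akt1 for growth and survival. Akt1 measured 9.65, 10.71 and 10.04 on P1, P2 and P3, against 10.59, 10.60 and 10.34 on N1, N2 and N3 with probe set 1416657_at. P2 was the highest of all 6 arrays, so the fractions overlapped (-0.37, SE 0.30, adjusted p = 0.480, 95% interval -1.16 to 0.41). With 1425711_a_at it measured 8.82, 9.65 and 9.24 on P1, P2 and P3, against 9.24, 8.60 and 8.58 on N1, N2 and N3. The fractions overlapped here too, and the difference had the other sign (0.43, SE 0.30, adjusted p = 0.421, 95% interval -0.37 to 1.22). The other Akt1 probe sets, 1442759_at and 1440950_at, were dim in both fractions, at 3.07 to 3.13 and 2.42 to 2.43 in Thy1-positive cells.

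Akt2 measured 8.48, 9.16 and 8.68 on P1, P2 and P3, against 9.34, 9.25 and 9.18 on N1, N2 and N3 with probe set 1424480_s_at. Every Thy1-positive array was the lower one, P2 narrowly so (-0.49, SE 0.19, adjusted p = 0.160). The probe set passed without P2 (-0.68, adjusted p = 0.0239), and failed in the other fits without 1 array (limma adjusted p = 0.278 to 0.369). With 1421324_a_at it measured 7.99, 8.43 and 8.25 on P1, P2 and P3, against 8.47, 7.65 and 7.74 on N1, N2 and N3, which overlap (0.27, SE 0.27, adjusted p = 0.558, 95% interval -0.43 to 0.98). Akt2 probe set 1455703_at lay near the array medians, at 4.08 to 4.65 in Thy1-positive cells, against 4.65 to 4.66 in Thy1-negative cells. Both kinases thus have a brighter probe set with a negative and a dimmer one with a positive difference. The second minus the first, per array, changed by 0.80 between fractions for Akt1 and 0.76 for Akt2, again for pairs chosen by their opposite signs and without a test.

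Pik3r1 encodes p85 alpha and its shorter forms, the regulatory subunits that hold the catalytic subunit of PI3K at receptors. Its 4 probe sets differed by -0.09, -0.42, 0.38 and 0.44, and none passed, with adjusted p from 0.439 to 0.918. The brightest, 1425514_at, measured 7.21, 5.91 and 6.70 on P1, P2 and P3, against 6.56, 6.47 and 7.05 on N1, N2 and N3. P1 was the highest and P2 the lowest of all arrays, so Thy1-positive cells enclosed the Thy1-negative ones. On 1438682_at the arrays read 5.68, 6.29 and 5.97 in Thy1-positive cells, against 6.59, 5.33 and 7.26 in Thy1-negative cells, which enclosed them in turn. The difference of the dimmer 1451737_at rested on P1 at 5.41, with P2 and P3 at 4.23 and 4.30 and Thy1-negative arrays at 4.21 to 4.30, and it was 0 without P1. Probe set 1425515_at stayed at 3.74 to 4.22 in Thy1-positive cells, against 3.16 to 4.09 in Thy1-negative cells.

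The genes with the most similar profile over the 6 arrays were sought for each member among 9095 other genes above the median, by the root mean square distance of log2 values centred on their own mean. For Mtor they were Ddx41 (0.05) and Rffl (0.06), for Tsc2 Ski and Mrtfa (0.09 each), and for Ddit4 Nacc2 and Ptms (0.10 each). For Tsc1 1455252_at they were Mon1b (0.10) and Foxo3 (0.11), of which Foxo3 is a transcription factor that AKT phosphorylates. For Akt1 1416657_at they were Cic (0.05) and Trp53inp2 (0.07), for Akt2 1424480_s_at Slc25a44 (0.04) and Purg (0.05), for Rptor 1434619_at Arhgap35 (0.09) and Ppp3r1 (0.12), and for Pik3r1 1425514_at Hmmr (0.13) and H2aj (0.18). Pearson's r of these pairs was 0.95 to 1, a description over 6 arrays that share their fractions.

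Around the 8 genes, 87 others of the pathway were listed by role, of which 81 have a gene-level value, with p adjusted over 18193 genes. Other probe sets of these genes are given with p adjusted over all probe sets. Of these 81 genes 25 were called higher and 15 lower, together 49.4%, against 33% of all genes (18.5% higher and 14.4% lower). By role the share called ran from 20% of lipid phosphatases to 75% of AKT targets, in lists of 5 to 15 measured genes. The counts per role below stand against the same 33%, and some are near it, such as PI3K subunits at 40% and mTOR complex partners at 42.9%. In 58 of the 81 the fractions did not overlap, against 51.4% of all genes. The median difference was 0.42, against 0.01 over all genes. Of the 81 only 3 were dim in both fractions, against 6272 of all 18193 genes, so the list and the table differ in brightness. Of the 40 called, 15 also passed in each of the 6 fits without 1 array, 11 higher and 4 lower, and all 40 kept their sign under quantile, median and housekeeping scaling. Without P1, P2, P3, N1, N2 and N3 the counts were 15, 15, 13, 14, 32 and 12 higher and 9, 12, 4, 7, 16 and 7 lower, while in the same fits 12.1%, 18.3%, 7.05%, 12.4%, 28.9% and 9.39% of all probe sets were called. These are shares of probe sets, which at the reported setting was 23.4%, against 33% of genes. The shares of genes in these fits are not given here, so the counts have no matching background.

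**Figure D4:**
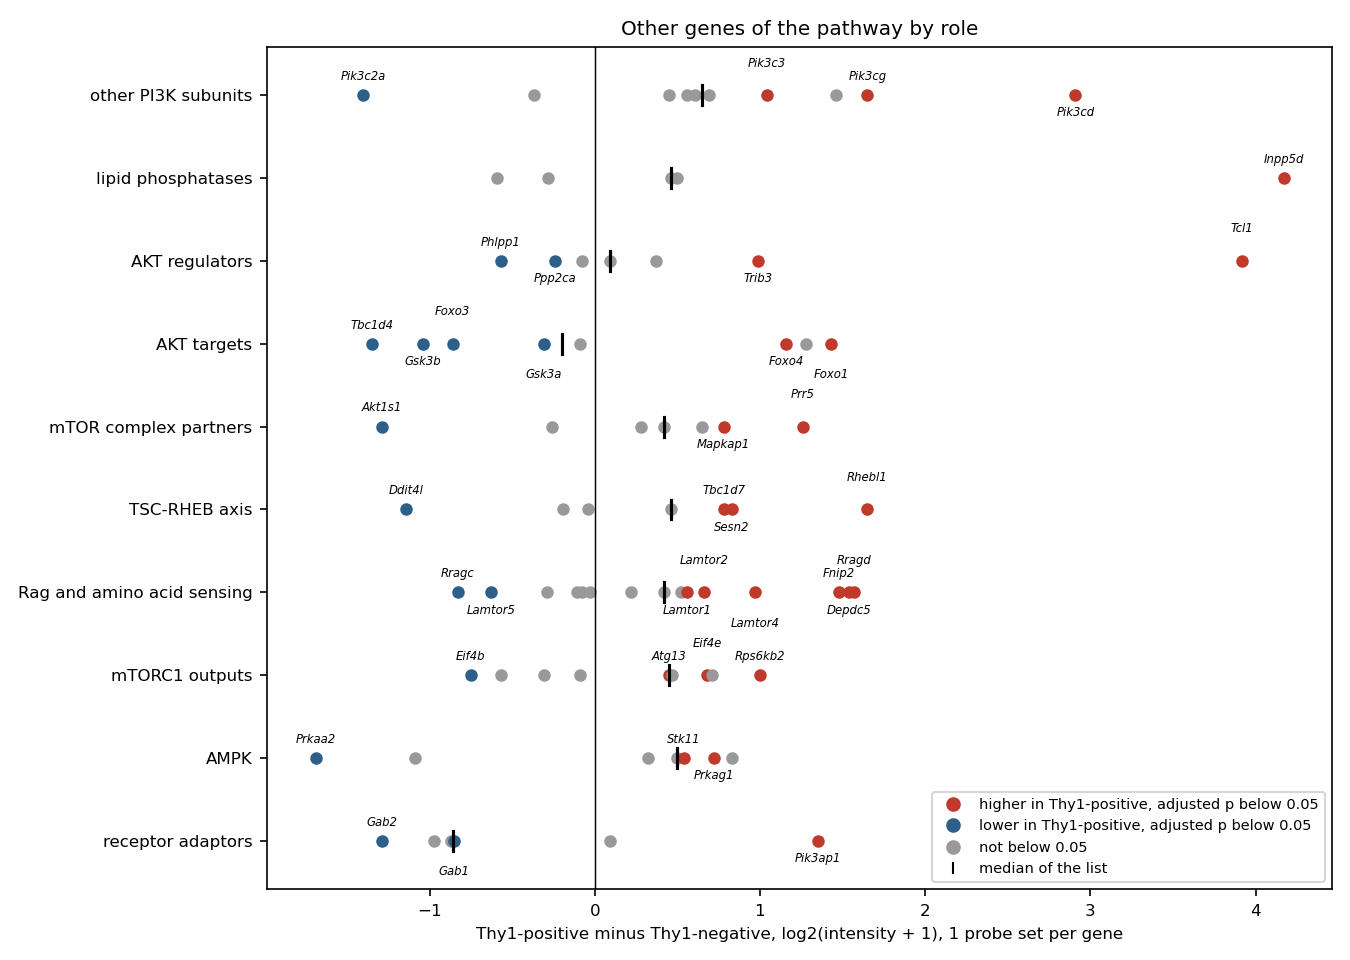
Each point is 1 gene at its Thy1-positive minus Thy1-negative difference of log2(intensity + 1), in rows by role, red where called higher, blue where called lower and grey otherwise, with list medians as short bars. Inpp5d (4.17), Tcl1 (3.92) and Pik3cd (2.91) lie farthest to the right, and Prkaa2 (-1.69) farthest to the left.

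Among the other PI3K subunits 3 of 10 were called higher and 1 lower. Pik3cd, the catalytic subunit of leukocytes, rose 7.54-fold, with 8.49, 8.73 and 8.65 on P1, P2 and P3, against 5.20, 6.42 and 5.51 on N1, N2 and N3 (2.91, SE 0.34, adjusted p = 0.00664), and 3 of its other probe sets were called higher, by 4.22, 2.75 and 0.64, while 2 that were dim in both fractions were not called. Pik3cg, another leukocyte subunit, was called higher from dim signal (1.65, SE 0.36), which its highest value of 4.58 on P3 keeps close to the array medians, and of the 6 fits that leave out 1 array it passed only in that without P1. The macrophage list had summed intensities of 11700 to 18400 in Thy1-positive cells, against 131 to 164 in Thy1-negative cells, as given above, and its part in these values was not tested. Pik3c3, the class III kinase of autophagy and endosomes, rose 2.06-fold (1.04, SE 0.16, adjusted p = 0.0122), but failed without N3. Pik3c2a, a class II kinase, was 2.65-fold lower (-1.40, SE 0.10, adjusted p = 0.00249), while its other probe sets differed by -0.49 and -0.42 and did not pass. The catalytic subunits Pik3ca (-0.37, adjusted p = 0.323) and Pik3cb (0.69, adjusted p = 0.135) did not pass with their brightest probe sets, although 2 dimmer ones of Pik3ca were called lower (-1.24 and -1.67). Of 5 lipid phosphatases 1 was called, Inpp5d, which encodes SHIP1, the phosphatase of blood cells. It measured 7.61, 7.61 and 7.92 on P1, P2 and P3, against 3.53, 3.88 and 3.20 on N1, N2 and N3, where it was dim, and was at least 11.4-fold higher (adjusted p = 0.000919).

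Among regulators of AKT 2 of 7 were called higher and 2 lower. Tcl1, a coactivator that binds AKT, measured 10.30, 10.15 and 10.30 on P1, P2 and P3, against 5.91, 6.73 and 6.35 on N1, N2 and N3, and rose 15.1-fold (3.92, SE 0.23, adjusted p = 0.00140). Trib3, a pseudokinase that binds AKT, was called higher (0.99, SE 0.26) but in none of the 6 fits without 1 array. Phlpp1, a phosphatase of AKT, was lower (-0.57, SE 0.12), and so was Ppp2ca, a catalytic subunit of protein phosphatase 2A (-0.24, SE 0.05). Phlpp1 among these fits passed only without N2, and Ppp2ca without N2 or N3. Pdpk1, the kinase that activates AKT, measured 8.76 in Thy1-positive cells, against 8.84 in Thy1-negative cells (adjusted p = 0.868).

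Of 8 AKT targets 2 were called higher and 4 lower. The forkhead factors, which AKT keeps out of the nucleus, split. Foxo1, needed by spermatogonial stem cells, measured 10.38, 11.28 and 10.67 on P1, P2 and P3, against 9.08, 9.82 and 9.13 on N1, N2 and N3 (1.43, SE 0.33, adjusted p = 0.0322), and among these fits passed only without N2. Foxo4 rose 2.24-fold (1.16, SE 0.12, adjusted p = 0.00483). Foxo3 was 1.81-fold lower, at 9.94, 10.37 and 9.75 on P1, P2 and P3, against 11.03, 10.70 and 10.91 on N1, N2 and N3 (-0.86, SE 0.19, adjusted p = 0.0295), and passed without P2 or N2 only. Foxo3 has other probe sets at -0.84, which was called lower, and at 0.14, which did not pass. Gsk3b, a kinase that AKT inhibits, fell by 1.04 (adjusted p = 0.0176), failed without P2 or P3, and has other probe sets at -3.09, which was called lower, and at 0.33, which did not pass. Tbc1d4, which links AKT to glucose transporters, fell by 1.35 (SE 0.23) and failed without P1, P3 or N3.

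Of 7 partners in the mTOR complexes 2 were called higher and 1 lower. Prr5, a subunit of mTORC2, rose 2.40-fold, with 9.10, 8.88 and 9.10 on P1, P2 and P3, against 7.50, 8.04 and 7.74 on N1, N2 and N3 (1.26, SE 0.16, adjusted p = 0.00775). Mapkap1, which encodes the mTORC2 subunit SIN1, was called higher with its brightest probe set (0.78, SE 0.15) and lower with another (-0.75, SE 0.13, limma adjusted p = 0.0201), and the first failed without P1, P2, P3 or N1. Rictor, the scaffold of mTORC2, measured 9.89 in Thy1-positive cells, against 9.47 in Thy1-negative cells with its brightest probe set, which did not pass (adjusted p = 0.111). Of its probe sets with a lower mean over the 6 arrays 2 were called higher (2.18 and 1.57), while those at 0.92 and -0.92 did not pass. Akt1s1, which encodes the mTORC1 inhibitor PRAS40, was 2.45-fold lower, with 7.95, 8.66 and 8.43 on P1, P2 and P3, against 9.84, 9.40 and 9.67 on N1, N2 and N3 (-1.29, SE 0.23, adjusted p = 0.0163). It failed without P3, N1 or N3, and another of its probe sets, at -0.90, did not pass (limma adjusted p = 0.0917).

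On the TSC and RHEB axis 3 of 7 were called higher and 1 lower. Rhebl1, a homologue of RHEB, rose 3.14-fold (1.65, SE 0.14, adjusted p = 0.00326), while Rheb itself differed by -0.19 (SE 0.10) and did not pass (adjusted p = 0.229). Tbc1d7, the small subunit of the TSC complex (0.78, SE 0.19), and Sesn2, a stress-induced inhibitor of mTORC1 (0.83, SE 0.22), among these fits passed only without N2. Ddit4l, the paralogue of Ddit4, measured 7.99, 8.40 and 8.04 on P1, P2 and P3, against 9.63, 8.83 and 9.39 on N1, N2 and N3. Like Ddit4 it was lower on every Thy1-positive array (-1.14, SE 0.25, adjusted p = 0.0288), and of its other probe sets 1 was called (-1.40) and 1 was not (-1.14). It passed without P2 or N2 only.

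Of 15 genes of the Rag GTPases and amino acid sensing 6 were called higher and 2 lower. Rragd, a Rag GTPase, rose 2.98-fold, with 10.56, 10.52 and 10.51 on P1, P2 and P3, against 8.80, 9.06 and 9.01 on N1, N2 and N3 (1.57, SE 0.08, adjusted p = 0.000919), whereas its paralogue Rragc fell by 0.83 (SE 0.09, adjusted p = 0.00531). Depdc5, a subunit of the GATOR1 complex that inhibits the Rag GTPases, was called higher (1.54, SE 0.33), and so was Fnip2, a partner of folliculin (1.48, SE 0.34). Both among these fits passed only without N2, and of the other Depdc5 probe sets 1 was called higher (1.43), while 2 had negative differences that did not pass. Of the Ragulator subunits, which anchor mTORC1 to lysosomes, Lamtor1 (0.56), Lamtor2 (0.66) and Lamtor4 (0.97) were called higher and Lamtor5 (-0.63) lower. Lamtor1 among these fits passed only without N2.

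Of 9 outputs of mTORC1 3 were called higher and 1 lower. Rps6kb2, an S6 kinase, rose 2.00-fold (1.00, SE 0.09, adjusted p = 0.00394). Eif4e, the cap-binding translation factor, rose by 0.68 (SE 0.10) with its brightest probe set and failed without P3 or N3, and of its other probe sets 2 had negative differences that did not pass and 1 was dim in both fractions. Atg13, a subunit of the autophagy kinase complex, was higher (0.45) and Eif4b, a translation factor, lower (-0.75). Each among these fits passed only without N2 and has another probe set with the opposite sign that was not called. Of 7 AMPK genes, which encode the energy sensor that inhibits mTORC1 and its activating kinase, Prkag1 (0.72) and Stk11 (0.54) were called higher and Prkaa2, a catalytic subunit, was 3.23-fold lower (-1.69, SE 0.15, adjusted p = 0.00367). Stk11 among these fits passed only without N2. Of 6 receptor adaptors 1 was called higher and 2 lower. The docking proteins Gab2 (-1.29, SE 0.19) and Gab1 (-0.85, SE 0.16) fell with their brightest probe sets, Gab2 failing without P3 and Gab1 without P3, N1 or N3. Gab2 has other probe sets at -1.78 and, with the opposite sign, at 0.61, neither of them called. Gab1 has others at -0.75, which was called lower, and at -0.12, which did not pass. Pik3ap1, an adaptor of B cells and macrophages, was called while dim in both fractions (1.35, SE 0.25), failing without P3, N1 or N3.

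Genes that induce Ddit4 or are induced with it were listed to set beside it. Of 14 measured 5 were called higher and 3 lower, together 57.1%, against 33% of all genes (18.5% higher and 14.4% lower), with a median difference of 0.01. Zbtb16, which encodes PLZF, a factor that raises Ddit4 in spermatogonial progenitors, rose 5.71-fold, with 11.22, 11.40 and 11.21 on P1, P2 and P3, against 8.19, 9.56 and 8.55 on N1, N2 and N3 (2.51, SE 0.39, adjusted p = 0.0117). It failed without P3 or N3. Cdkn1a, a cell cycle inhibitor under p53, rose 3.74-fold (1.90, SE 0.24), although its 3 Thy1-positive arrays read 7.39 each, and Tsc22d3, a glucocorticoid target, rose 3.52-fold (1.82, SE 0.45) and among these fits passed only without N2. Hif1a, the hypoxia-inducible factor, fell by 0.98 (SE 0.14, adjusted p = 0.0108) and failed without P3. Asns, an amino acid stress target of ATF4, was 3.75-fold lower (-1.91, SE 0.09, adjusted p = 0.000717), and Fkbp5, another glucocorticoid target, was 1.77-fold lower (-0.83, SE 0.18) and passed without N1 or N2 only.

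**Figure D5:**
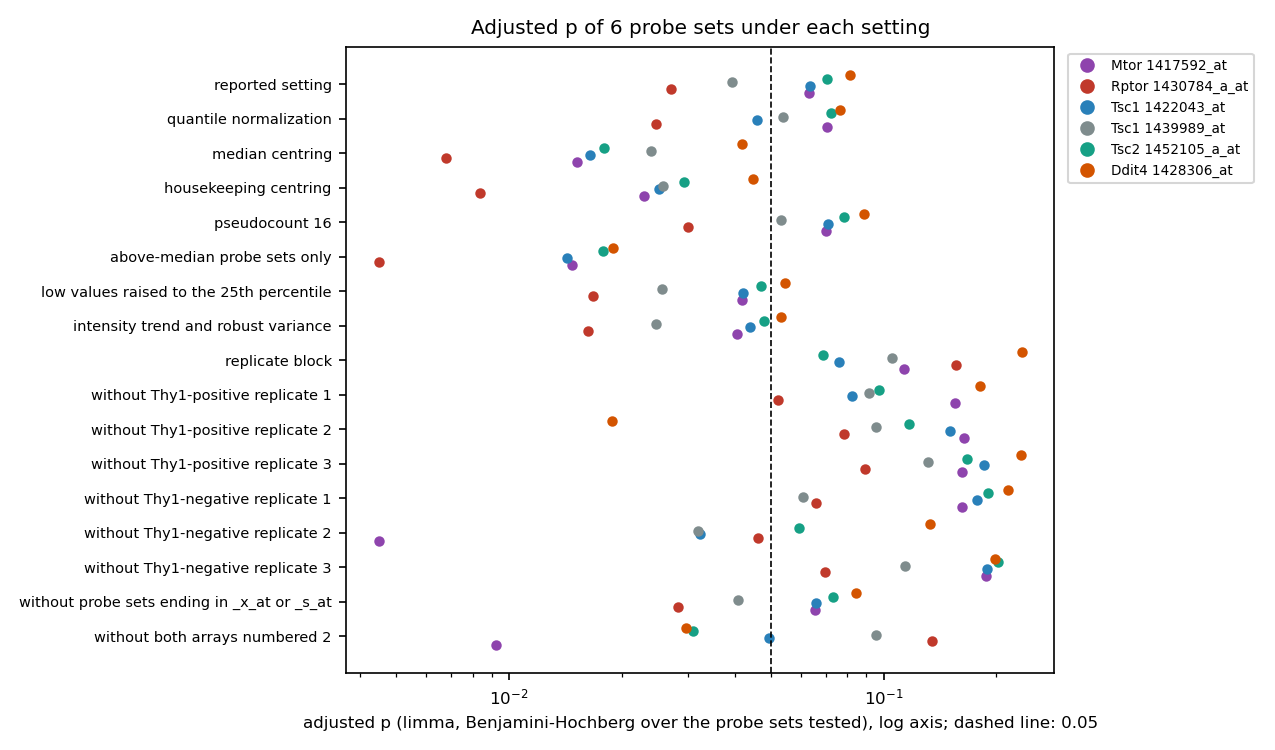
The horizontal log axis is the adjusted p of 6 member probe sets, with a dashed line at 0.05, and each row is 1 setting of the comparison. At the reported setting Rptor 1430784_a_at (0.0271) and Tsc1 1439989_at (0.0393) lie left of the line. Mtor, Tsc1 1422043_at, Tsc2 and Ddit4 lie right of it at 0.0633, 0.0636, 0.0705 and 0.0812.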

How the data were processed

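RNA of 6 testis samples was measured on Affymetrix arrays, 1 array per sample. The deposited table holds 1 linear intensity per probe set and array. The submitters' processing notes name GCRMA without a version, and the labels' descriptions tell of Affymetrix signals scaled to a set trimmed mean. That target differs from the 286.7 to 293 found on these arrays, so which of them made the deposited intensity values is unsettled. The array medians were 15.7 to 17.5. Of 45101 rows 64 Affymetrix controls were left out. The values, transformed here to log2(intensity + 1) and neither rescaled nor filtered, were fitted with limma 3.58.1 in R 4.3.3 (lmFit, eBayes, fraction as the single term, 2-sided, Benjamini-Hochberg at 0.05 over 45037 probe sets, or over 18193 genes by the brightest probe set of each). The fit was also run on simulated data with independent noise on each array, which cannot show how it handles shifts shared across an array. Symbols came from the platform table (34945 probe sets with 1 gene, 932 with several, 9160 with none), were checked by Entrez identifier against RefSeq on GRCm38.p6 (34741 matched, 0 updated), and some pathway genes without a row of their own were not analysed here.

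A probe set is dim where all arrays of a fraction are below their array's median, and its fold is then a bound against that median. Named genes were all members, Rictor, Pdpk1, Rheb, Foxo1 and Zbtb16 whatever their values, up to 3 called genes per list and direction, the 2 nearest profiles per member, and Pik3ca, Pik3cb and the Ragulator subunits, chosen after their values were seen. The members and lists were chosen with earlier results of these data known. The labels do not say that arrays of 1 number share a preparation, so no pairing was used. Alternatives were other scalings, a pseudocount of 16, filters, variance models, a replicate block and leaving out arrays. Precision is limited by having 3 arrays per fraction.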

Additional observations from a re-analysis of the deposited data

How the results depend on the processing

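No member's brightest probe set changed sign under any alternative except that of Pik3r1, and calls moved widely. The member probe sets called higher and lower, 1 and 1 as reported, were 2 and 0 with quantile normalization, 9 and 2 with median centring, 5 and 2 with housekeeping centring, 4 and 2 with above-median probe sets only, 3 and 1 without both arrays numbered 2, and 1 and 0 with a pseudocount of 16. In the same order 24%, 70.6%, 27.5%, 55.8%, 27.2% and 22% of all probe sets tested were called. With a floor at the 25th percentile, and with an intensity trend and robust variance, 5 were higher and 1 lower, where 34.6% and 24.5% of all were called. Leaving out 1 array gave 0 to 3 higher and 0 to 2 lower, with 7.05% to 28.9% of all called. Median centring raised the median difference by 0.13, and its calls include dim ones such as Akt1 1442759_at. Pathway genes called higher and lower, 25 and 15 as reported, numbered 39 and 15 with median centring and, leaving out 1 array, 12 to 32 and 4 to 16. The shares given for these settings are of probe sets and not of genes, so they are no matching background for pathway genes. With the replicate number as a block 0 and 0 member probe sets and 12 and 3 pathway genes were called, with 2.73% of all probe sets (Rptor 1430784_a_at, limma adjusted p = 0.156). Deviations from the fraction means correlated at -0.24, -0.24 and -0.07 for same-numbered arrays, and at -0.20 to 0.28 for unlike-numbered ones. With 3 arrays per fraction, whose deviations sum to 0, this cannot settle whether same-numbered arrays share a preparation. The sign turned for Pik3r1 1425514_at, at 0.03 with quantile normalization and with median centring and 0.15 without both arrays numbered 2. Leaving out 1 array, its difference ran from -0.39 to 0.26, above 0 without P2 or without N3. In the fits without 1 array the sign also turned for Pik3r1 1438682_at (-0.95 to 0.02, above 0 without N3) and Pik3r1 1451737_at (0 to 0.59, at 0 without P1). Dim probe sets near 0 turned as well. Among these were Akt1 1440950_at (0.12 with median centring, 0 without P2 and without both arrays numbered 2) and Akt1 1442759_at (0 without P3). The others were Mtor 1446185_at (-0.01 to 0.14 leaving out 1 array, below 0 without P1) and Rptor 1458472_at (0 with housekeeping centring, and 0 to 0.01 leaving out 1 array, at 0 without N2). The cause was not tested. The filter and the floor also leave fewer probe sets to adjust over.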
